A study of Mus musculus with 9 samples.

Results

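Cold-inducible RNA-binding proteins and cold-shock domain proteins were followed by their mRNA in mouse oocytes that had been cryopreserved or left fresh. The 7 genes were chosen by name from the 26358 genes of the table: Cirbp, Rbm3, Ybx1, Ybx3, Lin28a, Lin28b and Carhsp1. All 7 were in the table and passed the filter on low counts, as did 17545 genes in all. Poly(A) RNA was sequenced in 9 libraries, 3 for each of 3 groups. In the group called cryopreservation-2, oocytes were frozen in a straw with EG at 17.5%, trehalose at 1 M and nanoparticles labelled PVA/Fe3O4/GO. In the group called cryopreservation-1, the carrier was a cryotop, a strip made for vitrifying oocytes in a tiny drop, and the solution held EG and DMSO at 15% each and sucrose at 0.5 M. Fresh oocytes were the third group. Carrier, solutes and nanoparticles changed together, so the comparisons are between whole protocols and single agents cannot be told apart. The sources used here do not give mouse strain, age, oocyte stage or the number of oocytes per library. Nor do they say whether replicates were separate animals or pools. The p-values below therefore measure the spread between libraries, which may be technical.

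Cirbp and Rbm3 are small proteins with an RNA recognition motif and a glycine-rich tail. Mild cooling of mammalian cells in culture is known to raise both, and both bind mRNAs and influence their stability and translation. The cold-shock domain is an older fold, first described in bacterial cold-shock proteins, that binds single-stranded nucleic acid. In mammals it is found in the Y-box proteins, which package mRNA, in Lin28a and Lin28b, which block maturation of let-7 microRNAs, and in Carhsp1, a calcium-regulated, heat-stable protein that binds mRNA. The name of the domain comes from bacteria and does not mean that these mammalian genes respond to cold. A full-grown oocyte makes little new RNA, so a lower mRNA level there can reflect decay or a shorter poly(A) tail as well as less synthesis.

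Library depth lay between 49337232 and 80877288 counts, with the 3 cryopreservation-2 libraries the smallest. Oocyte markers, among them Gdf9, took 0.878% to 1.46% of the counts in cryopreservation-2 libraries, 0.955% to 1.39% in cryopreservation-1 libraries and 1.01% to 1.38% in fresh libraries. Markers of cumulus and granulosa cells took at most 0.00791% in any library, immune and blood markers at most 0.00157%, and stromal and endothelial markers at most 0.0167%. On the second principal component, which held 20.98% of the variance over 8091 genes, cryopreservation-2 replicate 1, cryopreservation-1 replicate 3 and fresh replicate 3 stood apart from the rest of their groups, and they had the most genes at 0 counts, 8421 to 9108, where the other 6 libraries had 7744 or fewer. The edgeR tests were recomputed without these 3 libraries together. The ratios within a library, the summed share, the correlations and the variance shares were not.

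A pair of sequence features is shown first. Each is linked to the regulation of some of these genes, not of all of them. In Cirbp, an element named for its response to mild cold has been described, with the core TCCCCGCC. RefSeq gives 2 start sites for Cirbp (GRCm38.p6, plus strand). The 250 bases before the first (chr10:80167589-80167838) hold the element once, 247 bases before the start, shown in capitals. The window before the second (chr10:80167921-80168170) holds it 0 times.
Cirbp promoter: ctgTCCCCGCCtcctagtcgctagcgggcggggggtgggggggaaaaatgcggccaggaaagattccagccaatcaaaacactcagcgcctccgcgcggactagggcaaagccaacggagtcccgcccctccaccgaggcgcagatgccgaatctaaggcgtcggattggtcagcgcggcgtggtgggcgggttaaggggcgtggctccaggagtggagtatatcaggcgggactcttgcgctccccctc
On either strand, the same 8 letters were also found in the windows of Ybx3, 45 bases before its start, and Carhsp1, 214 bases before its start and on the other strand. They were in 4.64% of 32851 promoter windows of that length. CCAAT, the core of the Y-box motif for which the Y-box proteins are named, was found in the first window of Cirbp and not the second, in the windows of Ybx1, Lin28b and Carhsp1 and in 33.8% of all windows. There were promoter entries for 6 of the 7 genes, Rbm3 being the exception, and a match is only a description of these letters.

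The second feature is the match to the let-7 seed, through which let-7 microRNAs and the Lin28 mRNAs are linked in both directions. The mature sequence is given as in RefSeq (GRCm38.p6), with the seed (bases 2 to 8) in capitals, and the sites with the seed match in capitals.
mmu-let-7a-5p: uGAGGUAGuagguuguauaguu
Lin28a site, chr4:134005189-134005211, minus strand: gcacagcctgttgaaCTACCTCa
Lin28a site, chr4:134004551-134004573, minus strand: gagatcgccacaaacCTACCTCa
Lin28b site, chr10:45381022-45381044, minus strand: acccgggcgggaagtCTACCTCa
Lin28b site, chr10:45378648-45378670, minus strand: tatacttgttagtaaCTACCTCt
Lin28b site, chr10:45378476-45378498, minus strand: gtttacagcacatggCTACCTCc
Lin28b site, chr10:45377060-45377082, minus strand: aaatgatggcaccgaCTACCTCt
All 9 let-7 family members looked up carry the seed GAGGUAG. The match CTACCTC was found 2 times in the 3' UTR of Lin28a and 4 times in that of Lin28b, and 0 times in the 3' UTRs of the other 5 genes, in the GENCODE transcripts with the build of the files. It was in 8.84% of 20966 mouse 3' UTRs, and in 14.4% and 24.0% of those whose length was within 20% of that of Lin28a and of Lin28b. The let-7 microRNAs themselves are too short to be measured in a poly(A) library.

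The genes differed widely in level. In FPKM, fragments scaled to gene length and library size, which allow levels to be compared between genes, Ybx1 led with a mean of 50.7 over the 9 libraries. Carhsp1 averaged 34.7 FPKM, Cirbp 8.86, Ybx3 6.85, Lin28a 2.68, Lin28b 2.57 and Rbm3 1.94. Among neighbours in this order, Carhsp1 and Cirbp were fully apart, since the lowest Carhsp1 value of 14.6 FPKM exceeded the highest Cirbp value of 12.1. Ybx1 was above Carhsp1 in 7 of 9 libraries and Cirbp above Ybx3 in 7 of 9, so these neighbours were not set apart by the spread. Lin28a and Lin28b were level with each other, Lin28a being higher in 5 of 9 libraries. In cryopreservation-2, Ybx3 and Cirbp averaged 10.7 and 10.01 FPKM with overlapping ranges, while in cryopreservation-1 Cirbp was above Ybx3 in all 3 libraries. The length behind these values is the union of a gene's annotated exons, 4698 bases for Rbm3 and 9065 for Lin28b, so a gene with long alternative exons gets a lower value than its main transcript would.

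**Figure D1:**
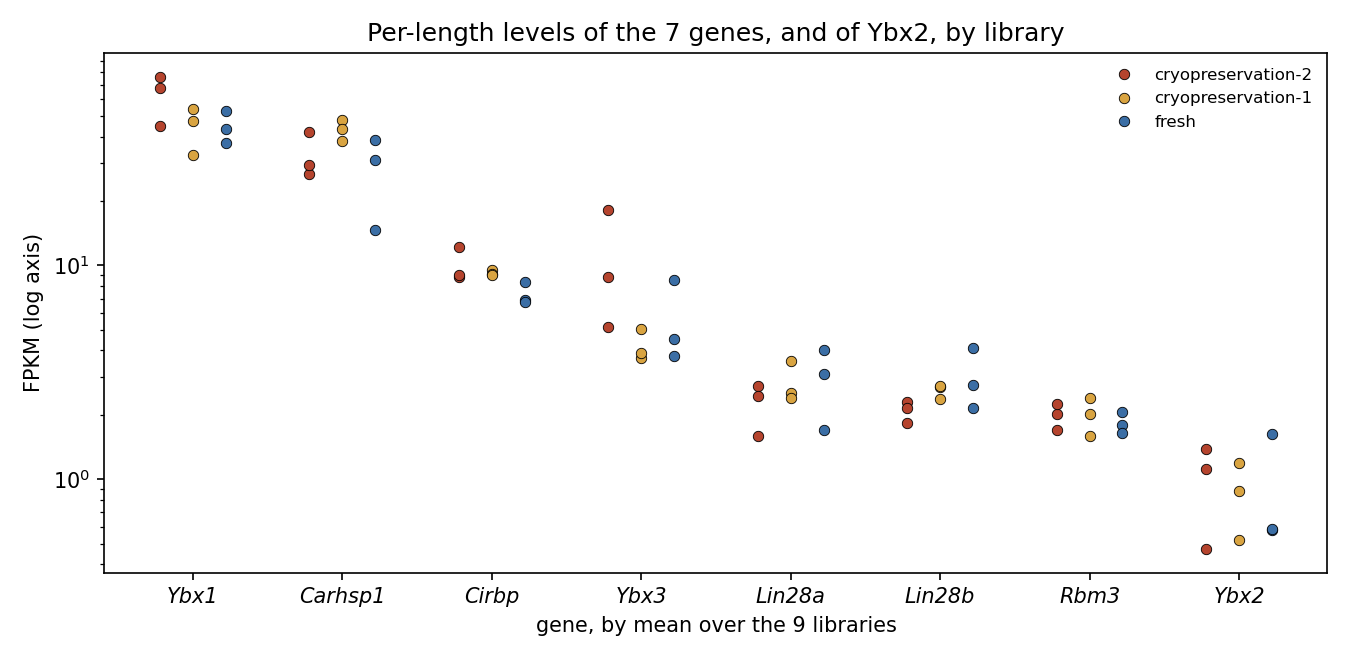
Level of each gene in FPKM (log axis) in every library, ordered by the mean over the 9 libraries; points are single libraries, coloured by group. Ybx1 and Carhsp1 lie above 10 FPKM in every library, and Lin28a, Lin28b and Rbm3 lie below 5 FPKM.

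Each gene was tested in the 3 comparisons by edgeR (quasi-likelihood test, all genes in 1 fit), with Benjamini-Hochberg adjustment over the 17545 genes. In cryopreservation-2 against fresh, 0 of the 7 genes passed an adjusted p of 0.05, where 5.38% of all genes passed; 1 of the 7, Lin28b, had an unadjusted p under 0.05, against 21.8% of all genes. In cryopreservation-1 against fresh, 0 of the 7 passed, where 0% of all genes passed, and 0 of the 7 had an unadjusted p under 0.05, against 4.72% of all genes. In cryopreservation-2 against cryopreservation-1, 0 of the 7 passed, where 2.75% of all genes passed, and 1 of the 7, Ybx3, had an unadjusted p under 0.05, against 18.9% of all genes. DESeq2 called 0 of the 7 in cryopreservation-2 against fresh, where it called 15.1% of all genes to which it gave an adjusted p, and 0 in cryopreservation-1 against fresh, where it called 0.363%. Between the methods it called 1 of the 7, Ybx3, and 12.1% of all genes. A share of 0 or 1 among 7 genes is near these backgrounds. The median log2 fold change of the 7 genes was 0.12 in cryopreservation-2 against fresh, where that of all genes was -0.06. It was -0.06 in cryopreservation-1 against fresh, where that of all genes was 0.02, and -0.08 in cryopreservation-2 against cryopreservation-1, where that of all genes was -0.07. The 3 comparisons share libraries and are not independent.

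**Figure D2:**
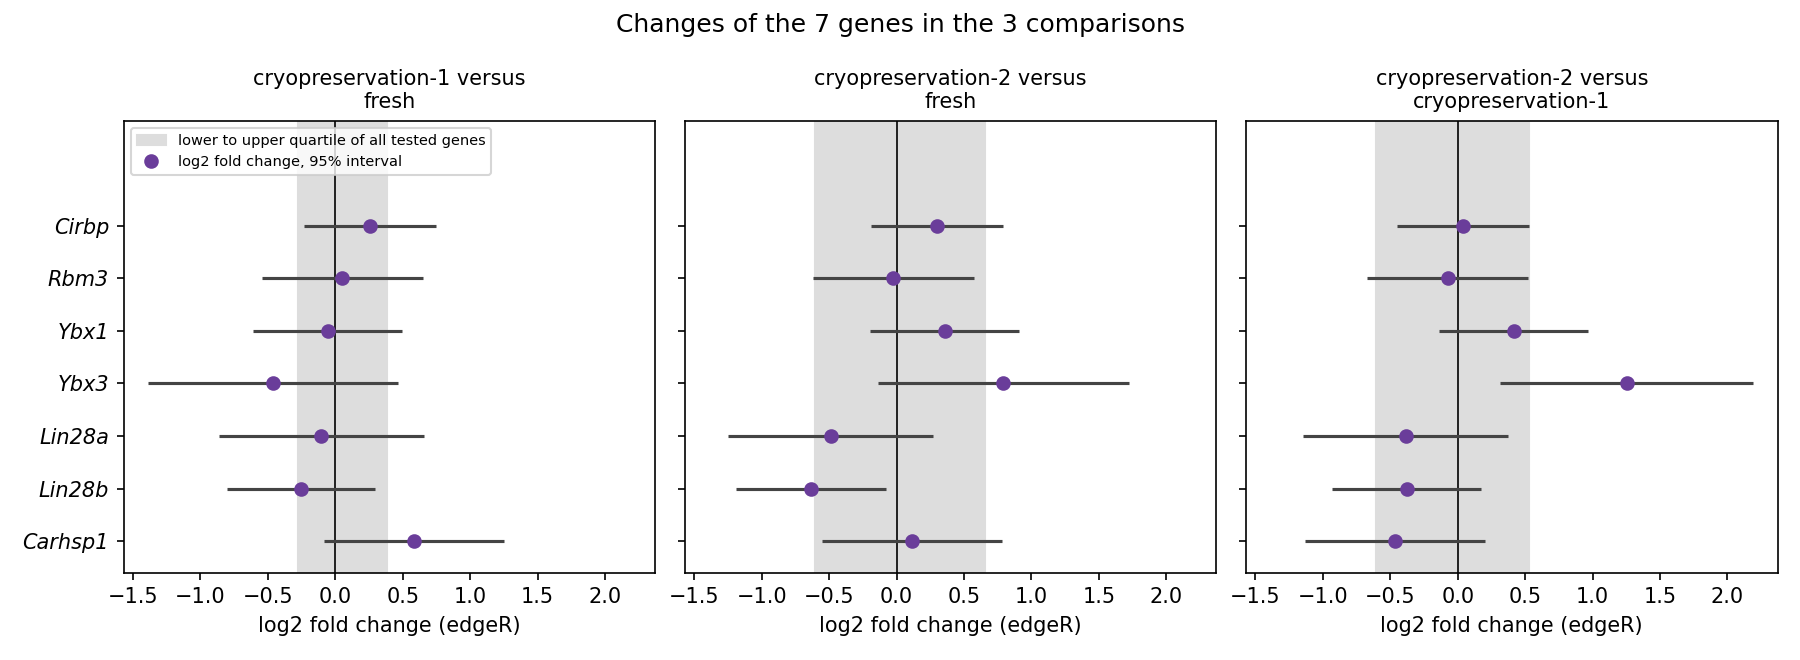
Log2 fold change of each gene (points) with its 95% interval (lines) in the 3 comparisons; the grey band runs from the lower to the upper quartile of all 17545 genes tested. Intervals leave out 0 for Lin28b in cryopreservation-2 against fresh, at -0.63, and for Ybx3 in cryopreservation-2 against cryopreservation-1, at 1.25.

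Cirbp, the protein best known for induction by mild cold, was slightly higher on average in both cryopreserved groups, by less than the test could separate from the spread. It stood at 26.6, 25.3 and 32.9 TMM-scaled CPM, counts scaled to library size, in cryopreservation-2 libraries, at 28.7, 27.4 and 26.4 CPM in cryopreservation-1 libraries, and at 20.2, 27.8 and 20.8 CPM in fresh libraries. Both cryopreserved groups lay above fresh replicates 1 and 3, and fresh replicate 2 lay among them. The log2 fold change was 0.30 in cryopreservation-2 against fresh (SE 0.22, 95% interval -0.19 to 0.79, edgeR adjusted p = 0.485). In cryopreservation-1 against fresh, the 95% interval of the log2 fold change was -0.23 to 0.75. These intervals reach to at most a 1.73-fold and a 1.68-fold higher level. Between the methods the log2 fold change was 0.04 (SE 0.22, edgeR adjusted p = 0.963).

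Whether the groups overlapped for Cirbp depended on the scale. In FPKM, Cirbp was at 8.84, 9.04 and 12.1 in cryopreservation-2 libraries, at 9.56, 9.14 and 9.04 in cryopreservation-1 libraries, and at 6.91, 8.34 and 6.75 in fresh libraries. There all 6 cryopreserved libraries lay above all 3 fresh ones. Of all genes tested, 17.6% were higher without overlap in FPKM in cryopreservation-2 against fresh and 8.14% in cryopreservation-1 against fresh. Fresh replicate 2 had the lowest TMM factor, 0.868, which raises its scaled CPM. Without fresh replicate 2, the log2 fold change of Cirbp was 0.46 in cryopreservation-2 against fresh (edgeR adjusted p = 0.292) and 0.42 in cryopreservation-1 against fresh (edgeR adjusted p = 0.773).

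Rbm3, the relative of Cirbp that is also induced by cold, lay at a similar level in all groups. Its values were 10.96, 8.59 and 11.1 CPM in cryopreservation-2 libraries, 8.63, 12.97 and 10.7 CPM in cryopreservation-1 libraries, and 9.54, 12.5 and 9.14 CPM in fresh libraries. All 3 groups overlapped, and 1.79% of the variation of its log2 level lay between groups, the lowest share among the 7 genes, against 43.5% for Cirbp. These shares carry no test and were not computed over all genes. With 3 libraries a group, part of the variation falls between groups by chance. The log2 fold change was -0.02 in cryopreservation-2 against fresh (SE 0.27, 95% interval -0.62 to 0.57, edgeR adjusted p = 0.976). Between the methods it was -0.08 (SE 0.27, edgeR adjusted p = 0.937). The 95% interval allows a level of Rbm3 in cryopreservation-2 between 0.650-fold and 1.49-fold that in fresh. Processed pseudogenes that match Rbm3 held 3.93% to 15.9% as many counts as Rbm3. A transcript annotated to another gene, Phospho2, matches Rbm3 over 380 bases at 97.4% identity, and Phospho2 held 3068% to 4836% as many counts as Rbm3. How many of those reads lie in the matching stretch is not known, so the level of Rbm3 is uncertain.

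Within a library, Cirbp was between 3.81-fold and 6.01-fold above Rbm3 in FPKM. The log2 ratio was 2.14, 2.41 and 2.43 in cryopreservation-2 libraries, 2.59, 1.93 and 2.16 in cryopreservation-1 libraries, and 1.94, 2.01 and 2.04 in fresh libraries. The cryopreservation-2 ratios lay above all fresh ratios, with a mean difference of 0.33 (exact two-sided permutation p = 0.1, the smallest that 3 against 3 libraries can give). How many of all gene pairs separate in this way was not counted. In FPKM, Cirbp alone was higher without overlap there, as were 17.6% of all genes. The uncertain level of Rbm3 limits all these ratios. The cryopreservation-1 ratios lay on both sides of the fresh ones, with a mean difference of 0.23 (exact two-sided permutation p = 0.4). This permutation did not pair libraries by replicate number.

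**Figure D3:**
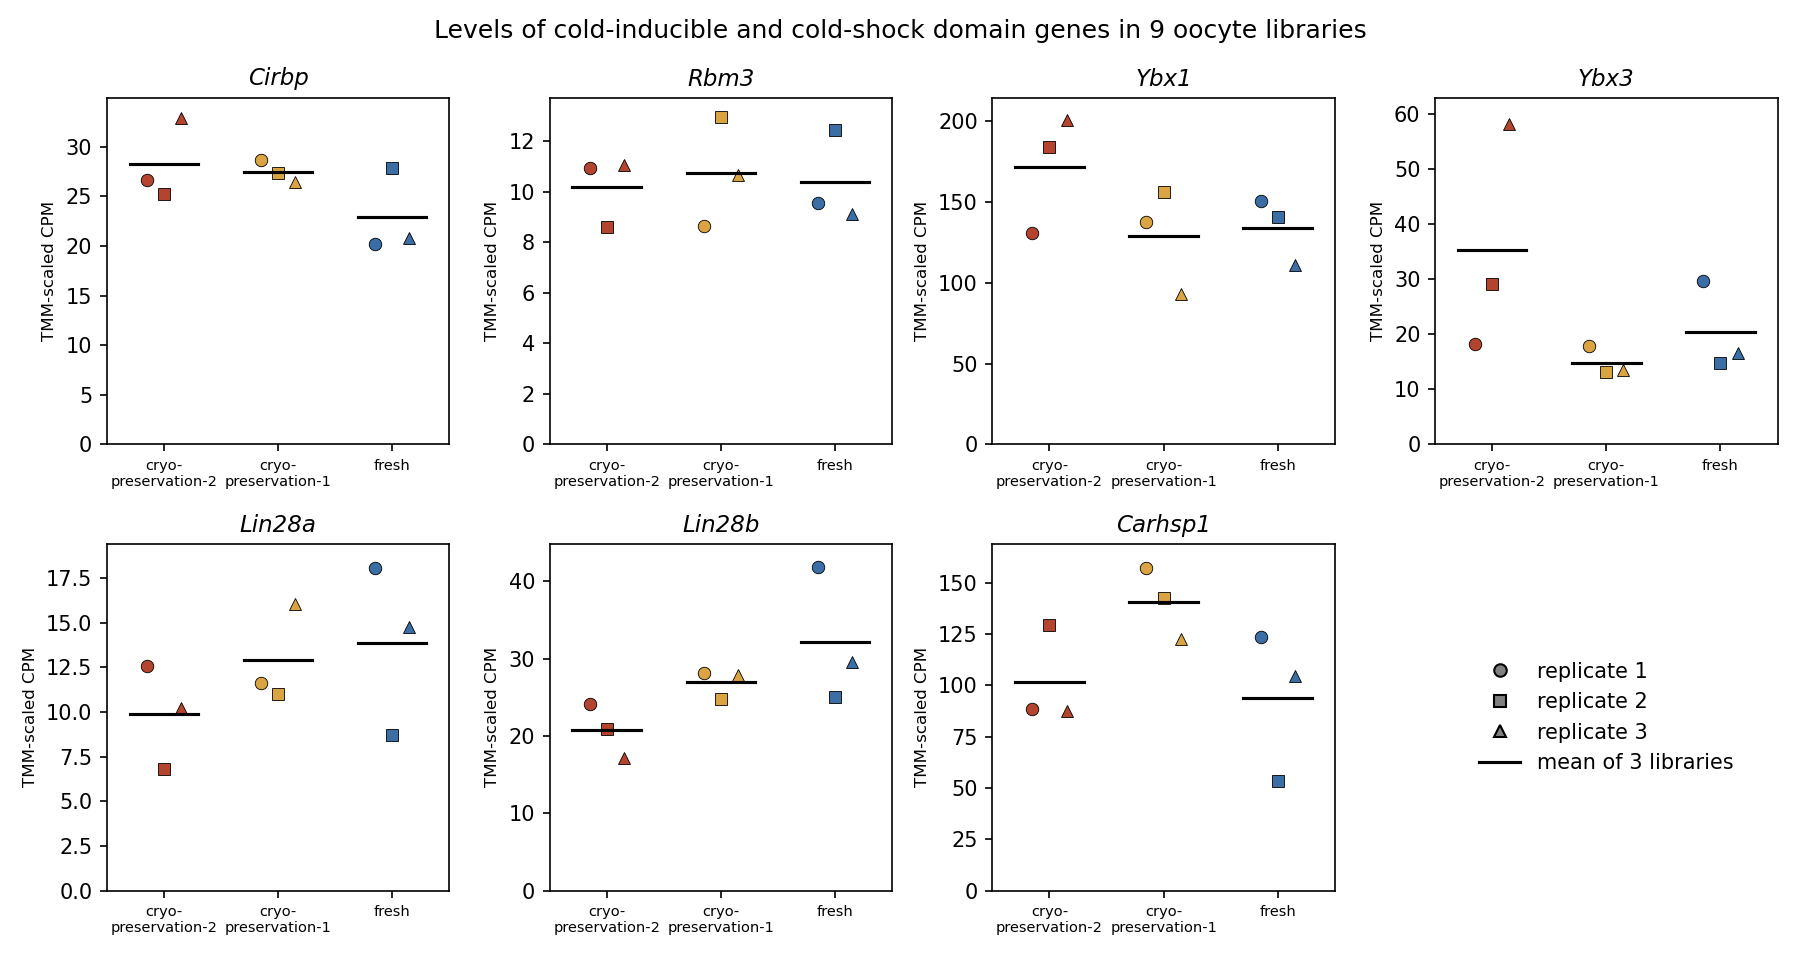
TMM-scaled CPM of the 7 genes in each library (symbols by replicate, bars at the mean of 3 libraries; axes start at 0). Ybx3 in cryopreservation-2 spreads from 18.3 to 58.2 CPM, and Lin28b in cryopreservation-2 lies below both other groups.

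Ybx1, the widely expressed Y-box protein that packages mRNA, had the highest mean FPKM of these genes over the 9 libraries. It was at 131, 184 and 201 CPM in cryopreservation-2 libraries and at 138, 156 and 92.9 CPM in cryopreservation-1 libraries. Fresh libraries were at 150, 141 and 111 CPM. Replicates 2 and 3 of cryopreservation-2 were the highest of the 9 libraries, while replicate 1 lay within the range of the other groups. The log2 fold change was 0.36 in cryopreservation-2 against fresh (SE 0.25, edgeR adjusted p = 0.457) and 0.41 against cryopreservation-1 (SE 0.25, edgeR adjusted p = 0.423). In cryopreservation-1 against fresh it was -0.06 (SE 0.25, edgeR adjusted p = 1). Processed pseudogenes of Ybx1 held 3.53% to 7.04% as many counts as Ybx1 itself.

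Ybx3, a Y-box protein that represses translation and is prominent in germ cells and muscle, varied most among the 7 genes. It was at 18.3, 29.1 and 58.2 CPM in cryopreservation-2 libraries, at 17.8, 13.1 and 13.4 CPM in cryopreservation-1 libraries, and at 29.7, 14.8 and 16.5 CPM in fresh libraries. All cryopreservation-2 libraries lay above all cryopreservation-1 libraries, by a small gap between 18.3 and 17.8 CPM, while fresh overlapped both. Of all genes, 13.8% were higher without overlap in cryopreservation-2 against cryopreservation-1. Its log2 fold change was 1.25 there, a 2.38-fold higher level (SE 0.42, 95% interval 0.31 to 2.19, edgeR adjusted p = 0.138). In cryopreservation-2 against fresh it was 0.79 (SE 0.42, edgeR adjusted p = 0.310), and in cryopreservation-1 against fresh -0.46 (SE 0.42, edgeR adjusted p = 1). In that comparison it was lower in 3 of 3 same-numbered pairs of libraries (edgeR on these 2 groups with the replicate block, adjusted p = 0.736). How many of all genes were lower in 3 of 3 pairs was not counted, so this carries no weight alone.

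The value of Ybx3 rested on cryopreservation-2 replicate 3, and its call on the tool. Without that library, the log2 fold change was 0.72 against cryopreservation-1 (edgeR adjusted p = 0.405) and 0.24 against fresh (edgeR adjusted p = 0.810). DESeq2 gave 1.28 between the methods with an adjusted p of 0.0333, and over all alternatives tried the adjusted p ranged from 0.0333 to 0.405. The coefficient of variation of Ybx3 over the 3 cryopreservation-2 libraries was 58.7%, against 17.7% in cryopreservation-1 and 39.9% in fresh.

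Ybx1 exceeded Ybx3 in every library, between 4.20-fold and 14.5-fold in FPKM. The log2 ratio was 3.12, 2.95 and 2.07 in cryopreservation-2 libraries, 3.23, 3.86 and 3.08 in cryopreservation-1 libraries, and 2.62, 3.53 and 3.03 in fresh libraries. The lowest ratio was that of cryopreservation-2 replicate 3 and the groups overlapped. The mean difference was -0.68 in cryopreservation-2 against cryopreservation-1 (exact two-sided permutation p = 0.2) and -0.35 against fresh (exact two-sided permutation p = 0.5).

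Lin28a and Lin28b, the RNA-binding proteins that hold back let-7, had their lowest group mean in cryopreservation-2. Lin28b was at 24.1, 20.9 and 17.2 CPM in cryopreservation-2 libraries, at 28.2, 24.8 and 27.9 CPM in cryopreservation-1 libraries, and at 41.9, 25.04 and 29.5 CPM in fresh libraries. The cryopreservation-2 libraries lay below all 6 others. Of all genes, 12.4% were lower without overlap in cryopreservation-2 against fresh, and 15.2% against cryopreservation-1. Lin28b had a log2 fold change of -0.63 in cryopreservation-2 against fresh, a 1.55-fold lower level (SE 0.25, 95% interval -1.19 to -0.08, edgeR adjusted p = 0.171). Against cryopreservation-1 it was -0.38 (SE 0.25, edgeR adjusted p = 0.471). In cryopreservation-1 against fresh it was lower in 3 of 3 same-numbered pairs, with a log2 fold change of -0.25 (edgeR on these 2 groups with the replicate block, adjusted p = 0.831). The replicate 2 pair differed only by 24.8 against 25.04 CPM, and the share of all genes lower in 3 of 3 pairs was not counted. Fresh replicate 1 held the highest value, and without it the log2 fold change of cryopreservation-2 against fresh was -0.40 (edgeR adjusted p = 0.428). In FPKM the highest cryopreservation-2 value, 2.30, lay above the lowest fresh value, 2.16, so there the groups overlapped.

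Lin28a was at 12.6, 6.82 and 10.2 CPM in cryopreservation-2 libraries, at 11.6, 11.01 and 16.05 CPM in cryopreservation-1 libraries, and at 18.1, 8.70 and 14.7 CPM in fresh libraries. All groups overlapped, with replicate 2 the lowest library of each group. The log2 fold change was -0.49 in cryopreservation-2 against fresh (SE 0.34, 95% interval -1.25 to 0.27, edgeR adjusted p = 0.461). It was -0.10 in cryopreservation-1 against fresh (SE 0.34, edgeR adjusted p = 1) and -0.39 between the methods (SE 0.34, edgeR adjusted p = 0.636).

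The ratio of Lin28a to Lin28b within a library lay between 0.737-fold and 1.35-fold in FPKM. In log2 it was 0.24, -0.44 and 0.43 in cryopreservation-2 libraries, -0.09, 0.01 and 0.39 in cryopreservation-1 libraries, and -0.03, -0.35 and 0.18 in fresh libraries. The groups overlapped, with a mean difference of 0.14 in cryopreservation-2 against fresh (exact two-sided permutation p = 0.7). Gm13061, a transcript on the strand opposite to Lin28a that overlaps its exons, fell in cryopreservation-2: it had 70, 75 and 90 counts there, 341, 248 and 158 counts in cryopreservation-1 libraries, and 337, 375 and 317 counts in fresh libraries. Its log2 fold change against fresh was -1.74 (SE 0.37, edgeR adjusted p = 0.0271). In that comparison edgeR called 5.38% of all genes, and 12.4% were lower without overlap. The call was lost without 7 of the 9 libraries in turn, with adjusted p up to 0.0840. Gm13061 matches Lin28a over 235 bases at 100% identity and held 10.7% to 62.0% as many counts as Lin28a. Since the strand setting of the counting is not given, reads of this transcript and of Lin28a cannot be told apart. The levels and fold changes of Lin28a and of Gm13061 above carry this limit.

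**Figure D4:**
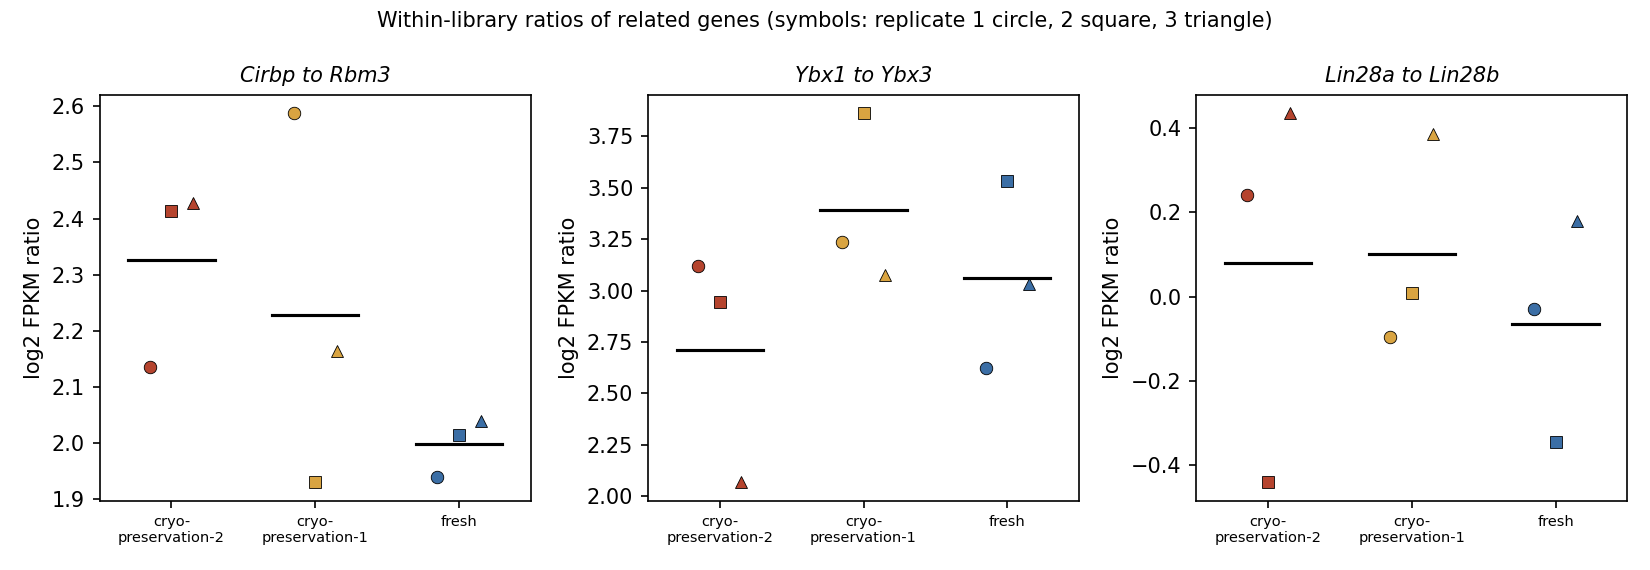
Log2 FPKM ratio of each pair of related genes within a library (symbols by replicate, bars at the mean of 3 libraries). Cirbp to Rbm3 is above every fresh library in all cryopreservation-2 libraries, and the groups overlap for Ybx1 to Ybx3 and for Lin28a to Lin28b. How many of all gene pairs separate in this way was not counted.

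Carhsp1, a calcineurin substrate that binds and stabilises mRNA, had its highest group mean in cryopreservation-1. It was at 88.6, 129 and 87.5 CPM in cryopreservation-2 libraries, at 157, 143 and 122 CPM in cryopreservation-1 libraries, and at 124, 53.4 and 105 CPM in fresh libraries. Replicates 1 and 2 of cryopreservation-1 were above all other libraries, fresh replicate 2 was the lowest, and the groups overlapped. Carhsp1 had a log2 fold change of 0.58 in cryopreservation-1 against fresh (SE 0.30, 95% interval -0.09 to 1.25, edgeR adjusted p = 1). There it was higher in 3 of 3 same-numbered pairs (edgeR on these 2 groups with the replicate block, adjusted p = 0.686). The share of all genes higher in 3 of 3 pairs was not counted. The log2 fold change was 0.12 in cryopreservation-2 against fresh (SE 0.30, edgeR adjusted p = 0.879) and -0.47 between the methods (SE 0.30, edgeR adjusted p = 0.462). Without fresh replicate 2, the value against fresh turned to -0.17 in cryopreservation-2. A pseudogene copy held 0.834% to 3.20% as many counts as Carhsp1.

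Summed over the 7 genes, their share of all counts averaged 0.0419% in cryopreservation-2 (SD 0.00877), 0.0349% in cryopreservation-1 (SD 0.00434) and 0.0312% in fresh oocytes (SD 0.00768), with n = 3 each. The groups overlapped in each comparison (exact two-sided permutation p = 0.2 for cryopreservation-2 against fresh, 0.6 for cryopreservation-1 against fresh and 0.3 between the methods). In bulk libraries, fewer oocytes with a transcript and less of it per oocyte cannot be told apart. Over all 7 genes, the library-to-library dispersion fitted by edgeR was low to moderate, between the percentiles 8.37 for Cirbp and 40.1 for Ybx3 of all genes tested.

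Ybx2, the germ-cell Y-box protein known in mouse for storing maternal mRNA, was scarce here, with 0.472, 1.38 and 1.11 FPKM in cryopreservation-2 libraries, 0.884, 1.19 and 0.518 FPKM in cryopreservation-1 libraries, and 1.63, 0.580 and 0.588 FPKM in fresh libraries. All groups overlapped, and its log2 fold change was -0.04 in cryopreservation-2 against fresh (SE 0.58, edgeR adjusted p = 0.984). DESeq2 did not call it in any comparison either.

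Genes known to act with these proteins were taken from 5 lists. Of the 15 tested regulators and effectors of Cirbp and Rbm3, 0 were called by edgeR in any comparison. Of all genes, 5.38% were called in cryopreservation-2 against fresh, 0% in cryopreservation-1 against fresh and 2.75% between the methods. In the same order, 2, 1 and 4 of the 15 had an unadjusted edgeR p under 0.05, against 21.8%, 4.72% and 18.9% of all genes. DESeq2 called 0, 0 and 1 of the 15, against 15.1%, 0.363% and 12.1% of all genes. Their median log2 fold change in cryopreservation-2 against fresh was -0.40, where that of all genes was -0.06, with 4 of 15 positive. Hnrnph1, a splicing factor known to act on Rbm3 transcripts, was at -0.68 (SE 0.24, edgeR adjusted p = 0.124), and Clk1, a temperature-sensitive kinase of splicing factors, at -0.40 (SE 0.21, edgeR adjusted p = 0.298). Sp1, the transcription factor that binds the mild cold response element, was at -0.01 (SE 0.26, edgeR adjusted p = 0.990).

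Among 21 tested genes of the Lin28 and let-7 axis, edgeR called 0 in cryopreservation-2 against fresh, where it called 5.38% of all genes. In that comparison 3 had an unadjusted edgeR p under 0.05, against 21.8% of all genes, and DESeq2 called 1, against 15.1%. There Tut7 was at a log2 fold change of -0.70 (SE 0.21, edgeR adjusted p = 0.0861) and Dis3l2 at -0.85 (SE 0.30, edgeR adjusted p = 0.133). Of the 21 genes, 7 were positive there. In cryopreservation-2 against cryopreservation-1, 1 of the 21 was called, against 2.75% of all genes, and is not reported here. Of the 21, 4 had an unadjusted edgeR p under 0.05, against 18.9% of all genes. Dis3l2 was among them, at -0.99 (SE 0.31, edgeR adjusted p = 0.108), and 10 of the 21 were positive. The let-7 targets Nras and Hmga2 were at -0.28 (SE 0.20) and 0.78 (SE 0.46), both with an adjusted p above the threshold. Dicer1, the enzyme that cuts let-7 precursors, was at 0.27 (SE 0.22) and Trim71, a let-7 target active in early embryos, at 0.09 (SE 0.23) in the same comparison.

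Of 23 tested partners of Y-box proteins in stored mRNA, 2 were called in cryopreservation-2 against fresh and 1 in cryopreservation-2 against cryopreservation-1. Of all genes, edgeR called 5.38% and 2.75% in these comparisons. In each of them 10 of the 23 had an unadjusted edgeR p under 0.05, against 21.8% and 18.9% of all genes. Fxr1, an RNA-binding protein of mRNA granules, was at 298, 309 and 333 CPM in cryopreservation-2 libraries and at 188, 205 and 167 CPM in fresh libraries, a log2 fold change of 0.74 (SE 0.16, edgeR adjusted p = 0.0307). Nsun2, an enzyme that writes the cytosine methylation that Ybx1 is known to read, was at 21.7, 26.1 and 22.8 CPM in cryopreservation-2 libraries and at 49.4, 35.9 and 63.7 CPM in fresh libraries, a log2 fold change of -1.08 (SE 0.26, edgeR adjusted p = 0.0437). Cpeb1, which controls polyadenylation of stored mRNAs, was at 93.6, 116 and 103 CPM in cryopreservation-2 libraries and at 227, 173 and 179 CPM in cryopreservation-1 libraries, a log2 fold change of -0.89 (SE 0.20, edgeR adjusted p = 0.0467). In each of these the groups did not overlap, as was so for 15.1% (higher) and 12.4% (lower) of all genes in cryopreservation-2 against fresh and for 15.2% (lower) against cryopreservation-1. DESeq2 called 6 of the 23 in cryopreservation-2 against fresh, where it called 15.1% of all genes, and 9 against cryopreservation-1, where it called 12.1%. The calls were lost without 6 of the 9 libraries in turn for Fxr1 (adjusted p up to 0.111), 8 for Nsun2 (up to 0.152) and 8 for Cpeb1 (up to 0.186), while the fold changes stayed between 0.67 and 0.83, between -1.26 and -0.86, and between -0.97 and -0.75. Over the list, 13 of 23 were positive in cryopreservation-2 against fresh, with a median of 0.23.

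Of 11 glycine-rich RNA-binding relatives of Cirbp and Rbm3, 10 had a positive log2 fold change in cryopreservation-2 against fresh, where 47.6% of all genes did, with a median of 0.83. The exception was Tardbp, at -0.78 (SE 0.21, edgeR adjusted p = 0.0567). Hnrnpa2b1, an mRNA-binding ribonucleoprotein, was the 1 gene called by edgeR, against 5.38% of all genes, and DESeq2 called 4, against 15.1%. In that comparison 4 of the 11 had an unadjusted edgeR p under 0.05, against 21.8% of all genes. Hnrnpa2b1 was at 201, 177 and 175 CPM in cryopreservation-2 libraries and at 113, 88.9 and 109 CPM in fresh libraries. Its log2 fold change was 0.83 (SE 0.20, edgeR adjusted p = 0.0420). That call was lost without each of the 9 libraries in turn, at values between 0.73 and 0.89 and adjusted p up to 0.106. In cryopreservation-2 against cryopreservation-1, Hnrnpa0 was the 1 gene called by edgeR, against 2.75% of all genes. There 3 of the 11 had an unadjusted edgeR p under 0.05, against 18.9% of all genes. Hnrnpa0 was at 10.9, 5.03 and 7.57 CPM in cryopreservation-2 libraries and at 1.84, 2.62 and 1.29 CPM in cryopreservation-1 libraries. Its log2 fold change was 2.03 (SE 0.43, edgeR adjusted p = 0.0385). The call was lost without 8 of the 9 libraries in turn, at values between 1.79 and 2.32 and adjusted p up to 0.158. In fresh libraries Hnrnpa0 was at 5.22, 4.55 and 2.83 CPM. The cryopreservation-1 libraries lay below these without overlap, as was so for 3.72% of all genes, while cryopreservation-2 and fresh overlapped. Oocyte markers moved upward in the same comparison as the list: 8 of 10 were positive in cryopreservation-2 against fresh, with a median of 0.50 and 1 called. Their part in the result was not tested.

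Of the 4 tested enzymes known to act on Carhsp1, 0 were called by edgeR in any comparison, with 1, 0 and 1 at an unadjusted p under 0.05 in cryopreservation-2 against fresh, cryopreservation-1 against fresh and cryopreservation-2 against cryopreservation-1. Of all genes, 21.8%, 4.72% and 18.9% had such a p in that order, and edgeR called 5.38%, 0% and 2.75%. DESeq2 called as many of the 4 in each, against 15.1%, 0.363% and 12.1% of all genes. In cryopreservation-2 against fresh, Ppp3r1, the regulatory subunit of calcineurin, was at a log2 fold change of -0.76 (SE 0.21, edgeR adjusted p = 0.064).

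**Figure D5:**
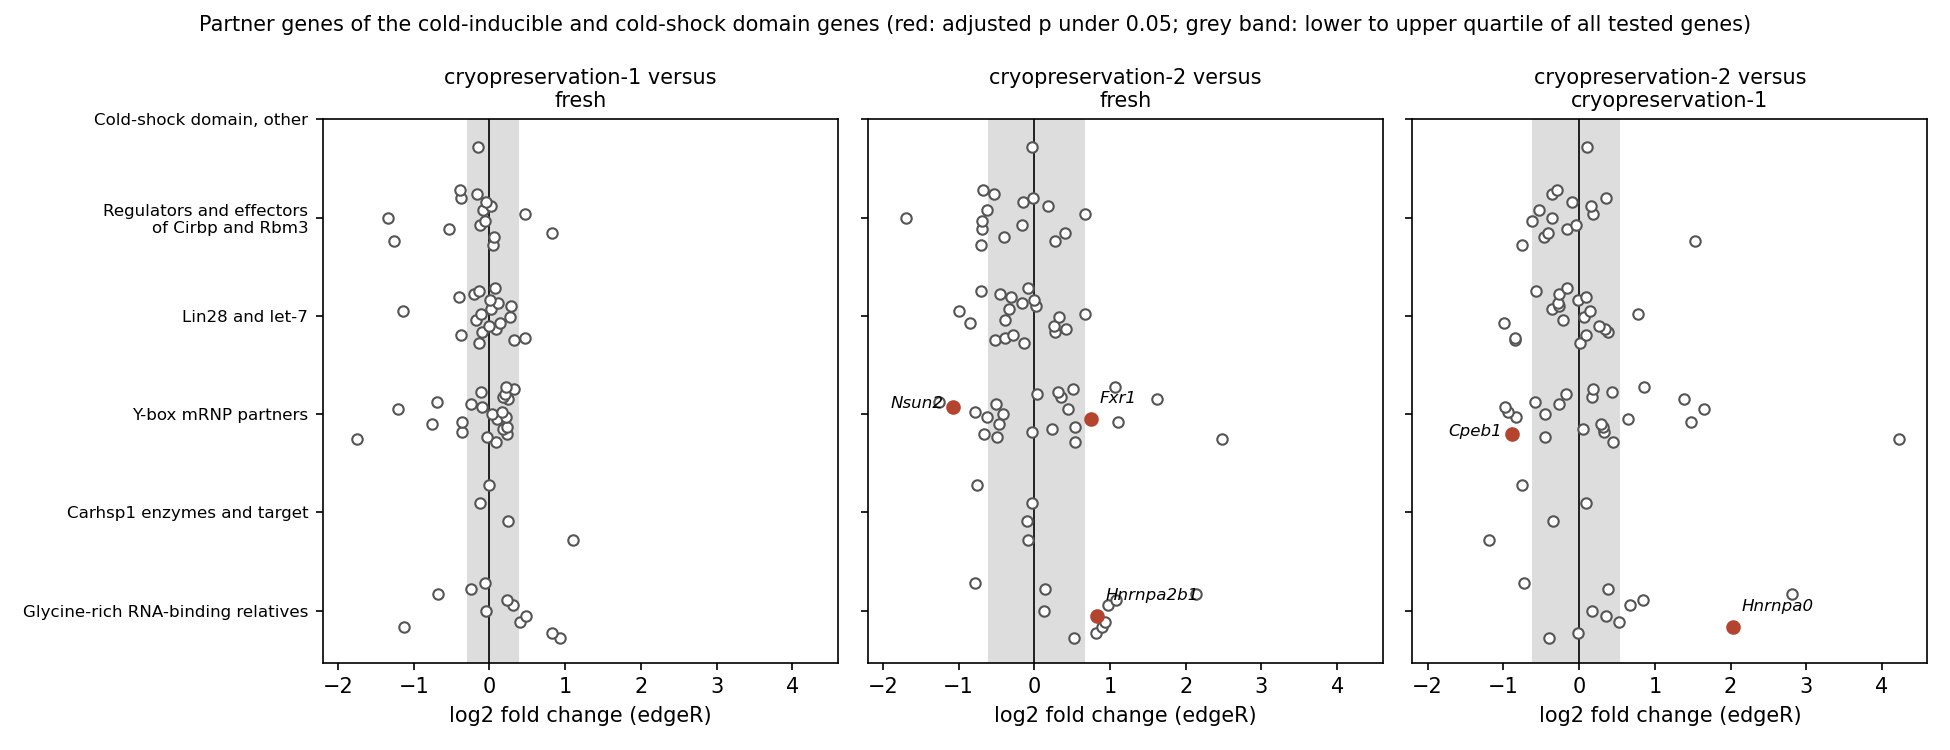
Log2 fold change of partner genes reported here, by list in the 3 comparisons; filled red points are genes called at an edgeR adjusted p under 0.05, open points are the rest, and the grey band runs from the lower to the upper quartile of all genes tested. Called are Fxr1, Nsun2 and Hnrnpa2b1 in cryopreservation-2 against fresh, and Cpeb1 and Hnrnpa0 in cryopreservation-2 against cryopreservation-1, among the genes drawn.

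Across the 9 libraries, related members were compared with each other by correlation. The Pearson correlation of log2(CPM + 1) was 0.74 between Ybx1 and Ybx3, 0.74 between Lin28a and Lin28b, and 0.42 between Cirbp and Rbm3. Cirbp and Lin28b ran opposite to each other, at -0.79. These values describe 9 libraries that fall into 3 groups and carry no test. The genes most like each member, among 8090 genes with a mean of at least 5 CPM, were Gpr137b-ps for Cirbp (0.91), Exosc8 for Rbm3 (0.93), Ptpn11 for Ybx1 (0.97), Ubap2l for Ybx3 (0.94), Ipo5 for Lin28a (0.95), Zfp113 for Lin28b (0.94) and Bnip5 for Carhsp1 (0.90). Next came Mxra8 for Cirbp (0.91), AA545190 for Rbm3 (0.88), Rps3a1 for Ybx1 (0.96), Prdm2 for Ybx3 (0.94), Eif2ak4 for Lin28a (0.94), Spire1 for Lin28b (0.94) and Vil1 for Carhsp1 (0.89). With so many genes and few libraries, the gene ranked 100 still reached between 0.65 for Rbm3 and 0.86 for Ybx1. For Ybx3, Lin28a, Lin28b and Cirbp the gene ranked 100 reached 0.79, 0.83, 0.81 and 0.76. The values between related members, 0.74, 0.74 and 0.42, lay below those for both genes of the pair. They do not set related members apart from other genes.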

How the data were processed

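Libraries were strand-marked (dUTP) cDNA of poly(A) RNA from Trizol extracts, per the labels' protocols. The submitters' processing notes name cutadapt 1.9, HISAT2 2.0.4, StringTie 1.3.4d and GRCm38. What counted the reads, with which strand setting and gene annotation, is not given in the sources used here. A single table was deposited by the authors with a raw count and an FPKM value per gene and library. The deposited counts are whole reads per gene, and the deposited FPKM values are scaled by the authors to gene length and library size. PCR copies were not told apart.

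Groups came from the treatment labels. Counts entered edgeR 4.0.16 (R 4.3.3) with filterByExpr (minimum count 10, minimum total 15), TMM scaling, 1 coefficient per group over all 9 libraries, glmQLFTest and Benjamini-Hochberg adjustment over 17545 genes; a gene was called at an adjusted p under 0.05. limma 3.58.1 and DESeq2 1.42.0 were alternatives, along with other scalings, filters, pseudocounts of 1 and 0.1, a length correction, a replicate block and leaving out libraries. The numbers in the sample titles paired cryopreservation-1 with fresh: in deviations from group means over genes, the 3 same-numbered pairs correlated at 0.272 to 0.473 and the 6 others at -0.368 to 0.0893, so these groups were also fitted with the number as a block. The labels do not say what the numbers share. The edgeR steps were also run on counts simulated from the mean levels and edgeR dispersions of these data. Such counts hold no outlying libraries or replicate pairing, so they cannot test how the steps deal with these. Levels between genes use FPKM. Ratios within a library and the summed share were compared by exact permutation over libraries. Libraries were not paired by number there, also in cryopreservation-1 against fresh. A count of 0 allows up to 3 counts, which is 0.0371 to 0.0608 CPM, and this covers counting error only. Replicate libraries differed by more than sampling noise (chi-square per degree of freedom 78.1 to 297). Motifs and seed matches were searched in RefSeq promoters and microRNAs (GRCm38.p6) and GENCODE M21 transcripts; pseudogene copies were found with BLAST 2.17.0 as matches over 200 bases at 90% identity. The text names all members, list genes past the threshold, the cold-shock domain gene Ybx2, genes that overlap a member and the 2 genes most like each member. Hnrnph1, Clk1, Sp1, Tut7, Dis3l2, Nras, Hmga2, Dicer1, Trim71, Tardbp and Ppp3r1 were picked after their values were seen. The members and the lists were chosen with earlier results of these data known. Some list genes, 1 of them past the threshold, count in the totals but are not reported here.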

Additional observations from a re-analysis of the deposited data

How the results depend on the processing

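Under every alternative run, 0 members were called in cryopreservation-2 against fresh and in cryopreservation-1 against fresh; between the methods 1 was called by DESeq2, Ybx3, and 0 under the rest. Genes called in cryopreservation-2 against fresh, 944 as reported, were 2704 with DESeq2, 1792 and 1654 with limma at pseudocounts of 1 and 0.1, 429 on the 2 groups alone, 194 without the 3 libraries that stood apart together, and 231 to 786 leaving out each library. Between the methods, 483 as reported, they were 2110, 1175 and 1010 with these tools, 0 without the 3 libraries and 15 to 480 leaving out each library. In cryopreservation-1 against fresh, 0 as reported, they were 65 with DESeq2, 1 on the 2 groups alone, 1 on these groups with the replicate block, an alternative chosen after seeing the data, and 0 to 1 leaving out each library. Replicate numbers did not pair cryopreservation-2 with either other group: same-numbered libraries correlated between -0.302 and 0.166 with fresh and between -0.449 and 0.162 with cryopreservation-1 in their deviations from group means. With the replicate block, 500 and 230 genes were called in cryopreservation-2 against fresh and between the methods, and 419 and 222 with the block and a length correction. Under the block the calls of Hnrnpa2b1, Nsun2, Fxr1, Gm13061, Hnrnpa0 and Cpeb1 were lost, at adjusted p of 0.0576 to 0.0884, and that of Pmm2 was kept. Of the called partner and neighbour genes reported here, the call held under 13 of 22 alternatives for Fxr1, 12 for Gm13061, 11 for Hnrnpa0, 9 for Hnrnpa2b1, 6 for Cpeb1 and 5 for Nsun2, and under 7 of 21 for Pmm2, with the direction held in all.

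Reversed signs were found only for values near 0. Rbm3 in cryopreservation-2 against fresh was 0.013 at a minimum count of 50, 0.074 and 0.11 with limma at pseudocounts of 1 and 0.1, 0.041 on the 2 groups alone, 0.12 with the block and length correction, 0.10 with length correction alone, and 0.039 with the counts of copies added, an alternative chosen after seeing the data. Rbm3 in cryopreservation-1 against fresh was -0.0071 with length correction, -0.010 with the block too, and -0.051 without the 3 libraries. Rbm3 between the methods was 0.00082 with limma at a pseudocount of 0.1, 0.13 with the block and length correction and 0.11 with length correction. Lin28a in cryopreservation-1 against fresh was 0.0055 with limma at a pseudocount of 0.1. Leaving out each library, Rbm3 ranged from -0.10 to 0.20, from -0.11 to 0.13 and from -0.21 to 0.081 in cryopreservation-1 against fresh, cryopreservation-2 against fresh and between the methods. Under the same settings, in cryopreservation-1 against fresh Ybx1 ranged from -0.22 to 0.13 and Lin28a from -0.35 to 0.14. Carhsp1 ranged from -0.17 to 0.37 in cryopreservation-2 against fresh, and Cirbp from -0.052 to 0.18 between the methods. The causes were not tested. With 3 libraries a group, the 95% intervals of the members spanned from 0.98 log2 units for Cirbp to 1.88 for Ybx3, which limits what could be detected.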

Other observations

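Pmm2, the phosphomannomutase gene whose span crosses that of Carhsp1 on the opposite strand without sharing exons, had 0, 0 and 3 counts in cryopreservation-2 libraries, 33, 40 and 84 counts in cryopreservation-1 libraries, and 52, 39 and 170 counts in fresh libraries. The cryopreservation-2 libraries lay below all 6 others, while cryopreservation-1 and fresh overlapped. Of all genes, 12.4% were lower without overlap in cryopreservation-2 against fresh, and the edgeR adjusted p of Pmm2 was 0.0399 there. The call was lost without each of the 9 libraries in turn, with adjusted p up to 0.121. No fold change is given, since 2 libraries were at 0.

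Rbm3os, an antisense transcript that overlaps the exons of Rbm3, had 16 counts in fresh replicate 3 and 0 in the other 8 libraries. Gm22362, a small nucleolar RNA within Ybx3, had at most 2 counts in any library.

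In their last 100 bases, the 3' UTRs of Rbm3 and Ybx1 held a cytoplasmic polyadenylation element (TTTTAT or TTTTAAT), as did 17.8% of 19745 mouse 3' UTRs of at least that length. In the other 5 genes these letters were not in that window.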
